A study of Mus musculus with 12 samples.

Results

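The genes described here are 40 genes of the cell cycle, whose products copy the DNA or divide the cell. They were taken from a list of symbols and read through the probes that carry only 1 gene symbol, with the brightest such probe for each gene. Of the 40 genes, 38 had such a probe, out of 22180 genes measured in this way on the array, while Ccnb1 and Ccne2 had none. All values are normalized log2 levels, so a difference of 1 is a 2-fold difference. A gene entered the tests when its mean in at least 1 tissue lay above 5.71, the median of all values of single-symbol probes, which left 12710 genes. Among the 38 cell cycle genes, 32 passed and 6 did not (Birc5, Bub1, Cdc6, Cdca8, Cenpf and Ttk). Another 8 passed only through their level in epididymal fat, and 2 of these only through wild-type replicate 1 of that depot.

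The samples were total RNA from 2 white fat depots, epididymal and inguinal, and from liver. They came from male Mgl2-DTR mice and from male wild-type C57BL/6N mice of matched age, and the labels give C57BL/6N as the background strain of both. Mgl2-DTR mice carry a receptor for diphtheria toxin that is driven by Mgl2, the gene of the lectin CD301b, so the toxin removes mononuclear phagocytes that make CD301b. Both genotypes received the toxin by intraperitoneal injection at 500 ng per dose, and tissue was taken on day 10, so no mouse was untreated. Each tissue had 2 Mgl2-DTR arrays and 2 wild-type arrays, 12 in all. The labels state neither the age nor any pooling, and only the word mouse says what a replicate is, so a p-value here measures the spread between arrays, which may be technical.

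A dividing cell passes through a G1 phase, an S phase in which DNA is copied, a G2 phase and mitosis. E2F transcription factors switch on the replication genes at the G1/S border, and a later program of cyclins, kinases and spindle proteins is switched on for mitosis. Most cells of adult fat and liver rest outside the cycle, and in fat the cells known to divide include macrophages, progenitors and endothelial cells. These are bulk tissue samples, in which fewer cells of a type and less RNA per cell cannot be told apart.

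Mgl2 was at 4.25 and 4.19 in Mgl2-DTR epididymal fat, against 7.46 and 7.22 in wild-type epididymal fat. It was at 4.12 and 4.72 in Mgl2-DTR inguinal fat, against 7.07 and 7.36 in wild-type inguinal fat. In liver it was at 4.59 and 4.03 in Mgl2-DTR and 4.36 and 4.12 in wild-type mice, all under 5.71. Tissue labels matched their markers, since the median of 10 hepatocyte genes was 12.43 to 12.60 in liver arrays and at most 5.96 in fat, and that of 9 adipocyte genes was at most 6.51 in liver arrays and 11.82 to 12.53 in fat. Some fat arrays carried other tissue. Skeletal muscle genes had a median of 9.23 in Mgl2-DTR replicate 1 and 9.89 in wild-type replicate 2 of inguinal fat, against 6.40 in Mgl2-DTR replicate 2 and 6.58 in wild-type replicate 1. Genes of the epididymal duct and sperm had a median of 10.80 in Mgl2-DTR replicate 2 of epididymal fat and at most 4.05 in the other epididymal arrays. Lcn5, a duct gene, was at 11.83 in that array and 4.71 to 4.79 in the others. The sperm gene Odf1 was not raised, at 11.7 there and 11.84 to 12.40 in the others, and the sperm gene Prm1 lay under 5.71 throughout.

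In epididymal fat, the cell cycle genes were set apart by 1 array. The median level of the 38 genes was 6.67 and 6.44 in the Mgl2-DTR arrays, against 7.73 and 6.17 in the wild-type arrays. Wild-type replicate 1 was the highest of the 4 epididymal arrays for 38 of 38 genes, where it was the highest for 30.9% of all measured genes. Wild-type replicate 1 was also the highest of all 12 arrays for 38 of 38, against 11.5% of all measured genes. In 28 of 38 genes it lay more than 1 above the mean of the other 3 epididymal arrays, against 2.85% of all measured genes. The high array was known when the genes were listed, so these counts describe it and no test is given.

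**Figure D1:**
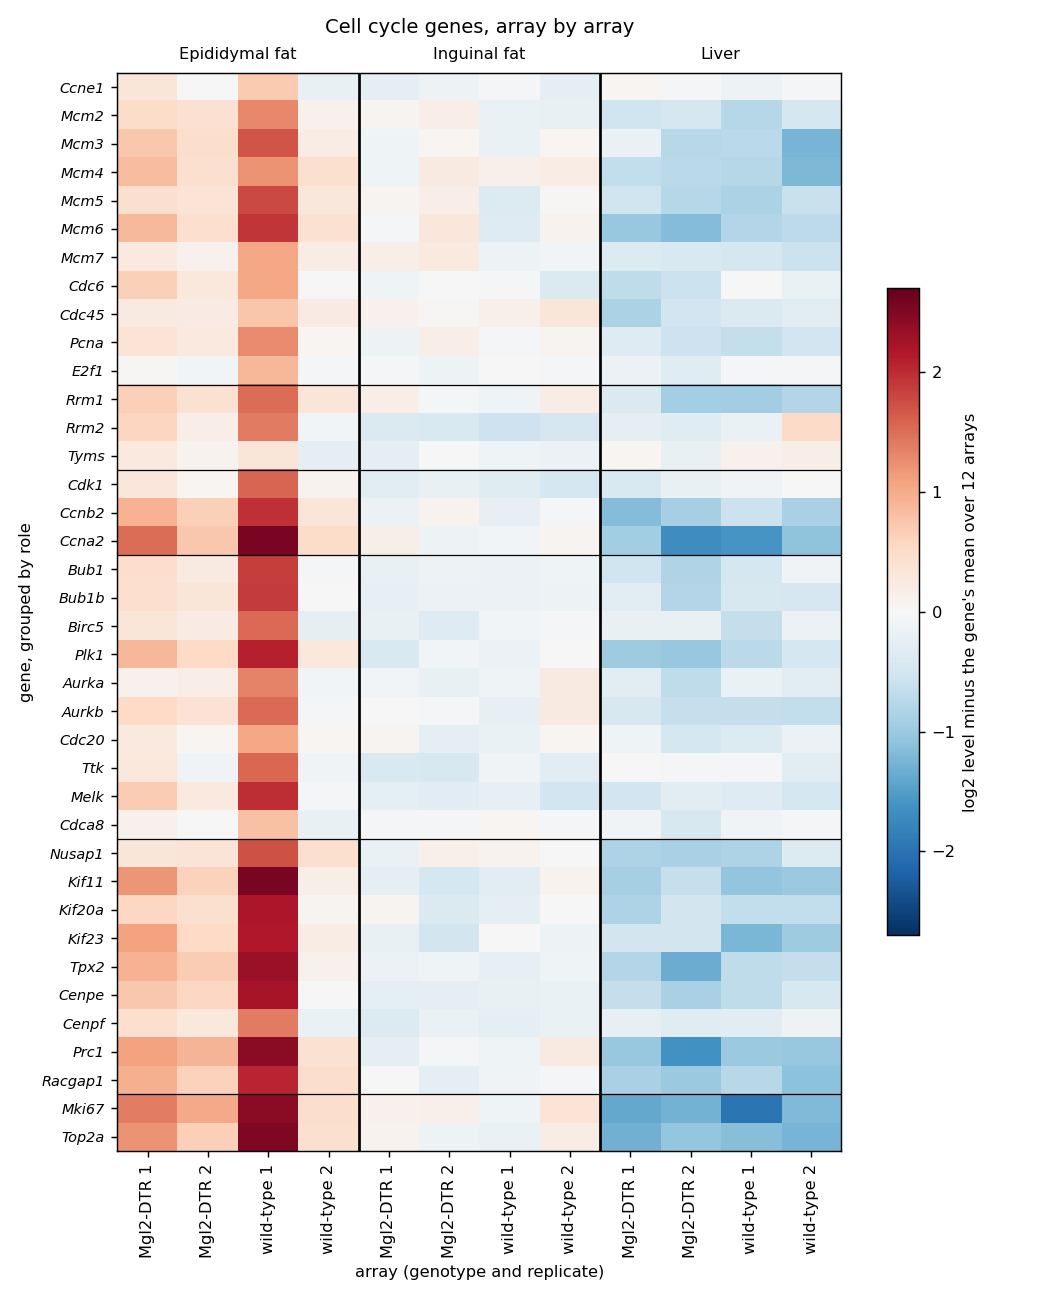
Log2 level of each of the 38 measured cell cycle genes (rows, grouped by role) in each of the 12 arrays (columns, Mgl2-DTR left of wild-type in each tissue), drawn as the difference from that gene's mean over the 12 arrays. Epididymal wild-type replicate 1 is the highest array for 38 of 38 genes, and for 24 of 38 genes every liver array lies under every fat array.

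The size of this excess over the other 3 epididymal arrays had a median of 1.35 over the 38 genes, and ran between 0.30 for Tyms and 1.91 for Kif11, while its median over all measured genes was near 0 (-0.00696). It was largest in the mitotic genes and smaller in the genes of DNA synthesis. By role, the median excess was 1.64 for 9 spindle, kinetochore and cytokinesis genes, 1.62 for 2 chromosome structure genes and 1.46 for 10 mitotic kinases and checkpoint genes. It was 1.42 for 3 genes of cyclins and Cdk1, 1.04 for 3 nucleotide supply genes and 0.93 for 11 genes of S-phase entry and replication. A probe near background understates its log2 difference, and probes differ in how strongly they respond, so these role medians were not compared by a test.

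**Figure D2:**
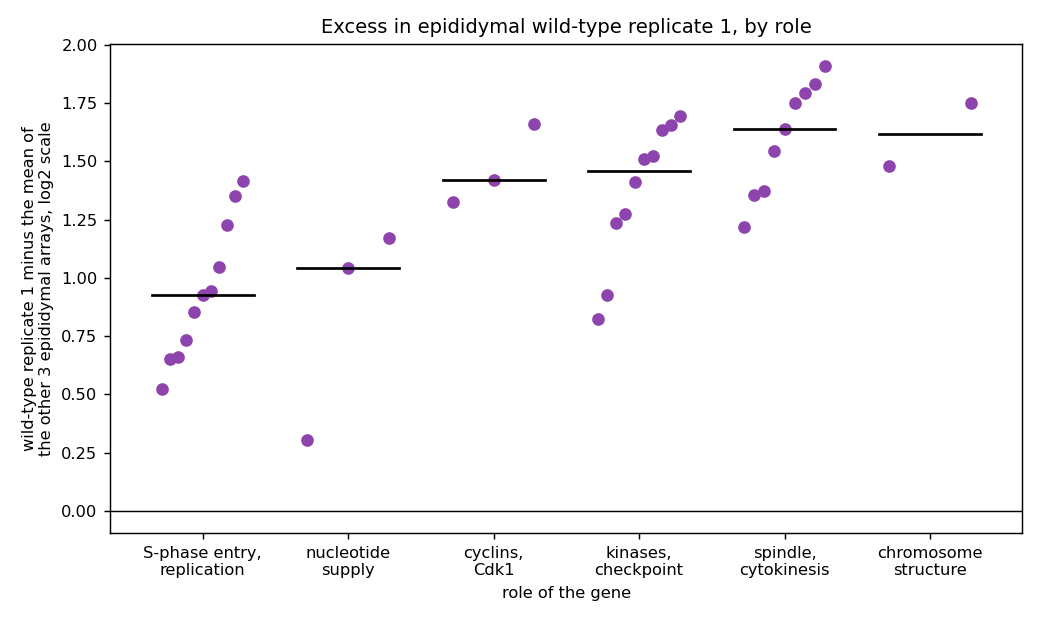
Excess of epididymal wild-type replicate 1 over the mean of the other 3 epididymal arrays (log2 difference) for each of the 38 cell cycle genes, grouped by role. All 38 values are above 0, with role medians between 0.93 for S-phase entry and replication and 1.64 for the spindle group.

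The spindle genes give the pattern at its widest. Kif11, the motor that pushes spindle poles apart, was at 6.95 and 6.38 in Mgl2-DTR arrays, against 8.33 and 5.93 in wild-type arrays. Cenpe, a kinetochore motor that moves chromosomes to the spindle equator, was at 6.25 and 6.08 in Mgl2-DTR arrays, against 7.74 and 5.51 in wild-type arrays. Both Mgl2-DTR arrays thus lay between the 2 wild-type arrays. Prc1, which bundles microtubules between the separating chromosomes, was at 6.95 and 6.79 in Mgl2-DTR and 8.31 and 6.28 in wild-type arrays, with the same order. Tpx2, an activator of Aurora A on the spindle, was at 7.28 and 7.04 in Mgl2-DTR and 8.68 and 6.47 in wild-type arrays. Kif20a and Kif23, motors needed for cytokinesis, had excesses within the group's range of 1.22 (Cenpf) to 1.91 (Kif11). Nusap1, a microtubule binding protein, differed in that its lower wild-type array was level with Mgl2-DTR fat, at 6.08 and 6.09 in Mgl2-DTR and 7.48 and 6.19 in wild-type arrays. It was the only 1 of the 38 genes for which both Mgl2-DTR arrays lay under both wild-type arrays, where 16.4% of all measured genes did so.

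Among genes of chromosome structure, Mki67, which encodes the proliferation marker Ki-67, was at 8.90 and 8.53 in Mgl2-DTR arrays, against 9.95 and 7.99 in wild-type arrays. Top2a, the topoisomerase that untangles sister chromosomes, was at 7.15 and 6.58 in Mgl2-DTR arrays, against 8.45 and 6.37 in wild-type arrays. Both genes were highest in wild-type replicate 1 and lowest in wild-type replicate 2. The cyclin Ccna2, which works in S phase and G2, followed this order at 7.87 and 7.07 in Mgl2-DTR and 8.93 and 6.85 in wild-type arrays. Its mitotic relative Ccnb2 was at 7.30 and 7.01 in Mgl2-DTR and 8.32 and 6.68 in wild-type arrays. Cdk1, the kinase that both cyclins activate, was at 6.37 and 6.13 in Mgl2-DTR arrays, against 7.64 and 6.15 in wild-type arrays, so apart from wild-type replicate 1 its 3 arrays were close together.

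In the mitotic kinases the high array was the same. Plk1, a kinase needed for mitotic entry and spindle assembly, was at 7.05 and 6.70 in Mgl2-DTR arrays, against 8.25 and 6.43 in wild-type arrays. Melk, a kinase gene expressed in dividing cells, was at 6.06 and 5.63 in Mgl2-DTR and 7.37 and 5.34 in wild-type arrays. Wild-type replicate 1 was the high array for each of them. Aurka and Aurkb, the Aurora kinases of the spindle pole and of the inner centromere, and Bub1b, a spindle checkpoint protein, had the same highest array. Aurkb was at 6.68 and 6.52 in Mgl2-DTR and 7.67 and 6.08 in wild-type arrays. The smallest excess of the role was that of Cdca8 (0.83), a partner of Aurkb in the chromosomal passenger complex, and its level of 4.79 and 4.68 in Mgl2-DTR and 5.48 and 4.49 in wild-type arrays lay under 5.71 throughout. Bub1, Birc5 and Ttk were above 5.71 in wild-type replicate 1 and in no other of the 12 arrays.

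The genes of DNA synthesis were high in the same array with smaller steps. Mcm5 and Mcm6 encode subunits of the helicase that opens the DNA. Mcm5 was at 7.04 and 6.97 in Mgl2-DTR arrays, against 8.39 and 6.92 in wild-type arrays. Mcm6 was at 7.62 and 7.20 in Mgl2-DTR arrays, against 8.67 and 7.15 in wild-type arrays. Pcna, the sliding clamp of the DNA polymerases, was at 9.41 and 9.31 in Mgl2-DTR and 10.31 and 9.09 in wild-type arrays. E2f1, the transcription factor that starts the S-phase program, was at 6.43 and 6.33 in Mgl2-DTR and 7.30 and 6.37 in wild-type arrays, so its other 3 arrays were close together. Rrm2, the regulated subunit of ribonucleotide reductase, was at 6.36 and 5.96 in Mgl2-DTR and 7.17 and 5.69 in wild-type arrays. Tyms, the thymidylate synthase gene, had the smallest excess of the 38, at 7.02 and 6.85 in Mgl2-DTR and 7.10 and 6.50 in wild-type arrays.

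Without wild-type replicate 1, the other 3 epididymal arrays also kept an order. Mgl2-DTR replicate 1 lay above wild-type replicate 2 for 37 of 38 genes, against 52.7% of all measured genes, with Nusap1 the exception. It lay above Mgl2-DTR replicate 2 for 36 of 38, against 53.5% of all measured genes. Both Mgl2-DTR arrays lay above wild-type replicate 2 for 34 of 38, against 31.7% of all measured genes, and the other 4 genes were Cdk1, E2f1, Mcm7 and Nusap1. The median distance was 0.52 between Mgl2-DTR replicate 1 and wild-type replicate 2 and 0.26 between Mgl2-DTR replicate 2 and wild-type replicate 2. Between the Mgl2-DTR arrays and wild-type replicate 2 alone, none of the tested cell cycle genes was called by limma, like nearly all genes tested in that fit.

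Macrophage genes moved with the high array. Of 16 pan-macrophage markers 15 were measured. Wild-type replicate 1 was the highest of the 4 epididymal arrays for 14 of them, against 30.9% of all measured genes. Their median was 9.32 and 9.01 in the Mgl2-DTR arrays, against 10.98 and 9.78 in the wild-type arrays. No marker was at background (the lowest value was 7.22). Both wild-type arrays lay above both Mgl2-DTR arrays for 12 of 15 markers, against 16.4% of all measured genes. The reverse held for 0 of 15, against 16.2%. Lyz2, the lysozyme gene of macrophages, was at 11.79 and 11.25 in Mgl2-DTR and 12.74 and 12.35 in wild-type arrays, and Cd68, a lysosomal protein of macrophages, at 11.43 and 11.39 in Mgl2-DTR and 12.96 and 11.61 in wild-type arrays. Markers of lipid-associated macrophages, of which 11 of 12 were measured, were highest in the same array for 10, with medians of 9.24 and 9.04 in Mgl2-DTR arrays and 11.00 and 9.17 in wild-type arrays. Among the other 3 arrays, both Mgl2-DTR arrays lay above wild-type replicate 2 for 0 of 15 pan-macrophage markers and for 34 of 38 cell cycle genes, against 31.7% of all measured genes. The 9 measured T and NK cell markers had medians of 5.60 and 5.51 in Mgl2-DTR arrays and 5.59 and 5.58 in wild-type arrays. These medians lay under 5.71, where a probe may sit at background and a difference may not show. Markers of other cells of fat were lower in wild-type replicate 1 than in the mean of the other 3 arrays, by list medians of -0.52 for 10 endothelial markers, -0.42 for 8 progenitor markers, -0.38 for 9 adipocyte markers and -0.89 for 6 mesothelial markers. That array was the highest of the 4 for 0 endothelial, 1 progenitor, 0 adipocyte and 0 mesothelial markers. The part of any cell type in the levels of the cell cycle genes was not tested.

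**Figure D3:**
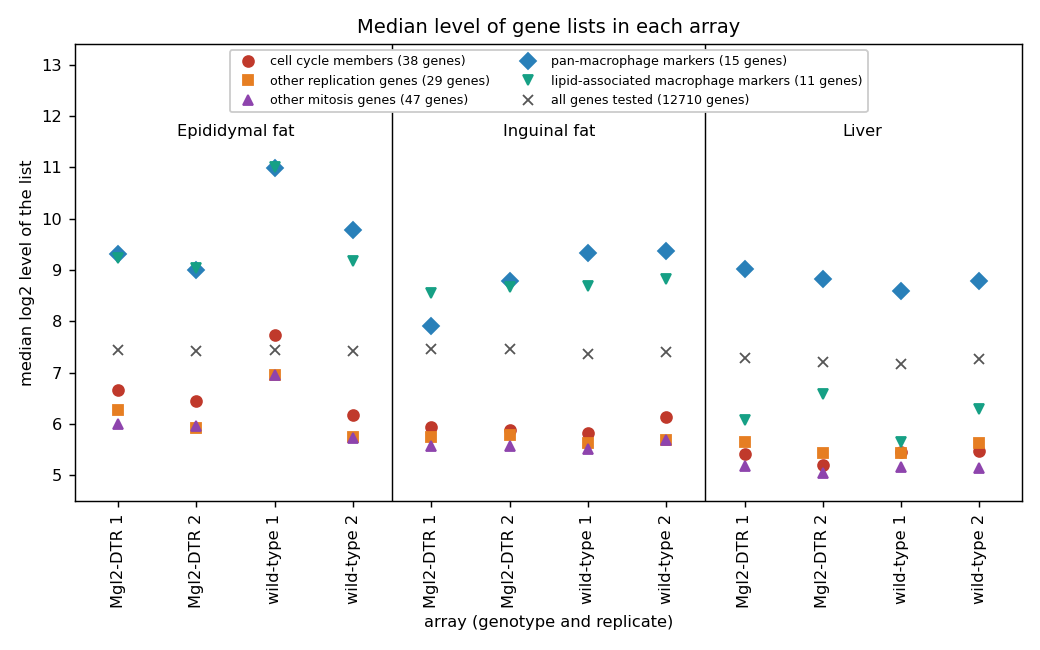
Median log2 level of gene lists in each of the 12 arrays (Mgl2-DTR left of wild-type in each tissue), with each point an array. The 38 cell cycle genes stand at 7.73 in epididymal wild-type replicate 1 and at 6.17 to 6.67 in the other 3 epididymal arrays.

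The promoters of these genes were read from RefSeq (GRCm38.p6), each covering 250 bases before to 50 bases after the start of the gene. An entry was found for 34 of the 40 genes, and none for Aurkb, Ccna2, Ccne2, Kif20a, Mcm4 and Tpx2. Printed here are the 2 replication genes and the 2 mitotic genes with the largest excess in the high array among those with an entry, to set the letters of both programs side by side. Capitals mark the motifs searched on both strands, which were an E2F core (TTCCCGC or TTGGCGC), the CCAAT box (CCAAT) and the cell cycle homology region, or CHR (TTTGAA or TTCGAA).
Mcm5: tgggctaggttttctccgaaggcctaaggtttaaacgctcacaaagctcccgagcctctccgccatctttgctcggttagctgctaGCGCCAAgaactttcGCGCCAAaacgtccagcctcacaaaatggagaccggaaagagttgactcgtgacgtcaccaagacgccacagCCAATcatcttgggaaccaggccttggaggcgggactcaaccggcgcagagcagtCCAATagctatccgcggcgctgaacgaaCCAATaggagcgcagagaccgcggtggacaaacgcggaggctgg
Mcm6: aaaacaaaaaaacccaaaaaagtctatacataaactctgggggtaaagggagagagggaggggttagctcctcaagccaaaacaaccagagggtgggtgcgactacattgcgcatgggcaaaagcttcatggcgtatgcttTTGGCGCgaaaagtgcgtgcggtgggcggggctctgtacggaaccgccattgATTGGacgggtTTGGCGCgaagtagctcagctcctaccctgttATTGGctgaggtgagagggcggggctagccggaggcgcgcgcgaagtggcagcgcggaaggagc
Kif11: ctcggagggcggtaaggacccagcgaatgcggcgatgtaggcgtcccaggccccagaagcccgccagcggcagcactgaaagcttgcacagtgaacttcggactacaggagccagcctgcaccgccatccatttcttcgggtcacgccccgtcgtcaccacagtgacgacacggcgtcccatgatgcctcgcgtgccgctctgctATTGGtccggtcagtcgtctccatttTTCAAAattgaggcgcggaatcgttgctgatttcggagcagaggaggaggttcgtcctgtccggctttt
Cenpe: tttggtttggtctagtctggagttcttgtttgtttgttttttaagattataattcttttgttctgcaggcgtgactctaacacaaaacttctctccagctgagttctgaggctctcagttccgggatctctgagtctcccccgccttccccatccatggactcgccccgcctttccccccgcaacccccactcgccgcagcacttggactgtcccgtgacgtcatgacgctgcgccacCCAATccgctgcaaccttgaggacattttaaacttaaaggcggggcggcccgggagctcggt
These windows are chr8:75109259-75109558 on the plus strand for Mcm5, chr1:128359656-128359955 on the minus strand for Mcm6, chr19:37376132-37376431 on the plus strand for Kif11 and chr3:135212313-135212612 on the plus strand for Cenpe.

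Mcm5 held E2F cores that began 164 and 149 bases before the start, and Mcm6 held them 109 and 46 bases before it. CCAAT boxes began 77 and 22 bases before the start of Mcm5, with another at base 7 of the gene. In Mcm6 they began 57 and 14 bases before the start. Kif11 held a CCAAT box 45 bases and a CHR 19 bases before the start, and Cenpe a CCAAT box 12 bases before it. An E2F core was present in 26.5% of the 34 promoters, against 6.93% of 27025 promoters in the table. It was found in 5 of 10 genes of S-phase entry and replication and in 0 of 16 mitotic genes, counting kinase, checkpoint, anaphase and spindle genes as mitotic. The CCAAT box was present in 79.4% of the 34 promoters, against 37.9% of all promoters, and the CHR in 55.9%, against 19.4% of all promoters. Both were present in 12 of 16 mitotic genes and 3 of 10 genes of S-phase entry and replication, against 7.7% of all promoters. Matches of different motifs overlapped in 3 genes (Ccnb1, Cdca8 and Mcm7). A match describes the letters only, and says nothing of binding in these tissues.

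The first comparison of genotypes asks whether the cell cycle genes differed in epididymal fat after depletion of CD301b-positive cells. Of the 32 genes tested, 0 passed an adjusted p under 0.05 in the fit with limma, against 0.0315% of all genes tested, and 0 had an unadjusted p under 0.05, against 6.98%. The estimates were negative for 37 of 38 genes with a median of -0.42 over the 32 tested, between -0.75 for Nusap1 and 0.14 for Tyms, while the median of all tested genes was 0.00486. Mki67 differed by -0.26 (SE 0.52; limma adjusted p = 0.952) and Kif11 by -0.46 (SE 0.59; limma adjusted p = 0.919) between Mgl2-DTR and wild-type fat. Nusap1, with the lowest estimate, differed by -0.75 (SE 0.34; limma adjusted p = 0.711). None of these differences exceeded the spread between replicates.

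The sign of the estimates hung on 1 array. Without wild-type replicate 1, none of the tested cell cycle genes was called by limma, like nearly all genes tested in that fit. The difference was then positive for 36 of 38 genes, with a median of 0.395 over those tested. Without wild-type replicate 2, it was negative for 38 of 38 with a median of -1.25 over those tested, and 22 of 32 genes were called lower in Mgl2-DTR fat, against 4.77% of all genes tested in that fit. The wild-type array then left is the one whose height was known when the genes were listed, so these calls describe it and are no separate test. In both fits the lone wild-type array was assumed to vary like the other groups.

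**Figure D4:**
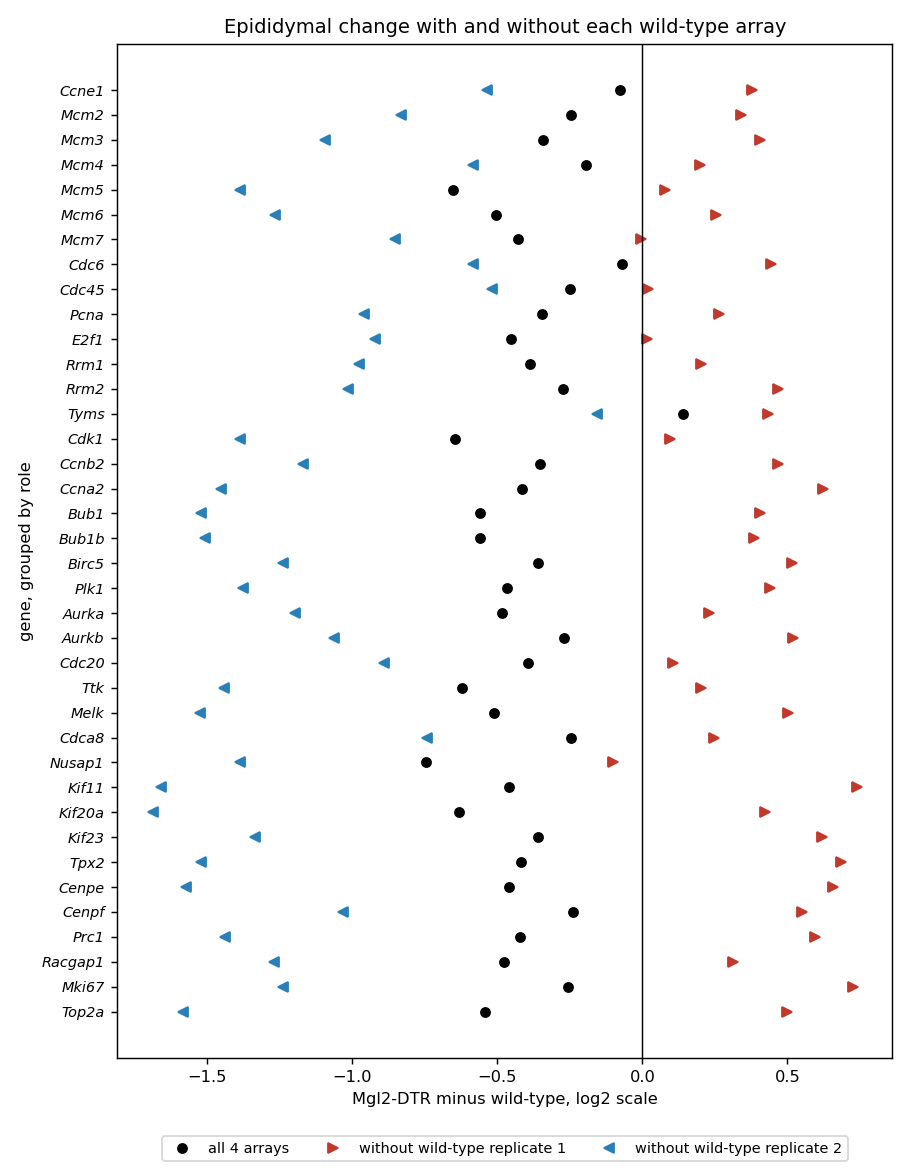
Difference between Mgl2-DTR and wild-type epididymal fat (log2) for each of the 38 cell cycle genes with all 4 arrays, without wild-type replicate 1 and without wild-type replicate 2. With all arrays 37 of 38 are negative, without replicate 1 there are 36 of 38 above 0, and without replicate 2 all 38 lie below 0.

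The second comparison of genotypes concerns inguinal fat, where the levels of the cell cycle genes were close in all 4 arrays. The median of the 38 genes was 5.94 and 5.89 in Mgl2-DTR arrays, against 5.83 and 6.14 in wild-type arrays. Of the 32 genes tested, 0 were called by limma, against 0.00787% called higher and 0.189% called lower of all genes tested, and 0 had an unadjusted p under 0.05, against 6.93%. The median difference was -0.02, with estimates between -0.28 and 0.32, where the median of all tested genes was 0.10. With the array medians set equal, that median was 0.03 and the median of the cell cycle genes was -0.09. The estimates were then positive for 8 of 32 genes, against 14 of 32 in the values as deposited. Mki67 was at 7.63 and 7.66 in Mgl2-DTR arrays, against 7.40 and 7.89 in wild-type arrays. Mcm5 was at 6.68 and 6.78 in Mgl2-DTR and 6.23 and 6.63 in wild-type arrays, and Kif23 at 5.36 and 5.08 in Mgl2-DTR and 5.58 and 5.43 in wild-type arrays. Mcm5 was higher and Kif23 lower in both Mgl2-DTR arrays. In all, Mgl2-DTR arrays lay above wild-type arrays for 5 of 38 genes (Cdk1, Mcm2, Mcm5, Mcm7 and Rrm2), against 34.8% of all measured genes. They lay below for 7 of 38 (Bub1b, Birc5, Cdc45, Kif23, Cenpe, E2f1 and Ttk), against 9.54% of all measured genes. The median pan-macrophage level in these arrays was 7.91 and 8.78 in Mgl2-DTR arrays, against 9.33 and 9.36 in wild-type arrays.

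In liver, the third comparison of genotypes, the median of the 38 genes was 5.42 and 5.21 in Mgl2-DTR arrays, against 5.45 and 5.48 in wild-type arrays. By limma, 0 of 32 genes were called, against 0.0708% of all genes tested, and 0 had an unadjusted p under 0.05, against 5.53%. The median difference was -0.01, and all 38 estimates lay between -0.53 for Cdc6 and 0.61 for Kif23. Kif23 was at 5.07 and 5.08 in Mgl2-DTR livers, against 4.34 and 4.60 in wild-type livers, and Cdc6 at 4.15 and 4.26 in Mgl2-DTR livers, against 4.82 and 4.65 in wild-type livers. All of these levels lay under 5.71, where a probe may sit at background. Mgl2-DTR arrays lay above wild-type arrays for 6 of 38 genes, against 15.9% of all measured genes, and below for 12 of 38, against 18.6%.

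The difference between genotypes was also compared between tissues. The inguinal minus the epididymal change had a median of 0.39 over the 32 tested genes, and 0 passed by limma, as did 0 of all 12710 genes, of which 364 (2.86%) had an unadjusted p under 0.05. Mcm7 was the only cell cycle gene with an unadjusted p under 0.05, at 0.75 (SE 0.33; limma adjusted p = 0.995). Without epididymal wild-type replicate 1 this median was -0.39, and without wild-type replicate 2 it was 1.21 with 5 genes called higher, against 0.708% of all genes tested in that fit. The liver change minus the change in fat had a median of 0.19 and 0 genes called, against 0.236% of all genes tested. Without epididymal wild-type replicate 1 its median was -0.20, so its sign also turned on that array. The average change over 3 tissues had a median of -0.17 with 0 called, against 0.0708% of all genes tested, and its median without epididymal wild-type replicate 1 was 0.13. Without wild-type replicate 2 there were 10 called lower, against 1.66% of all genes tested in that fit.

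The tissues themselves differed in the level of the cell cycle genes. Liver lay lowest for most genes. With no filter on dim genes, 24 of 38 were called lower in liver than in the mean of both fat depots by limma, against 25.4% of all measured genes, and 0 were called higher, against 24.4%. The median difference of the 38 was -0.86, against 0.05 for all measured genes. The fat mean holds epididymal wild-type replicate 1, whose height was known when the genes were listed, which favours a lower liver level. Against inguinal fat, which does not hold that array, the liver mean was lower for 32 of 38 genes and higher for 6. The median distance between inguinal fat and liver was 0.53. With the filter, 24 of the 32 genes tested were called lower, against 41.8% of all genes tested, and 0 higher, against 26.6%. A gene that passed the filter only through fat had to be lower in liver, so that count is no support by itself. Of these 24 genes, 15 had a liver mean under 5.71, where the distance may be understated. Among the 12 genes whose liver mean passed the filter, 9 were called lower (Mki67, Mcm2 to Mcm7, Pcna and Rrm1), against 36.4% of such genes on the array. Over the genes tested, the median difference was -1.02, against -0.15 for all, and was -0.83, against 0.04, with the array medians set equal. All 8 fat arrays lay above all 4 liver arrays for 24 of 38 genes, against 18% of all measured genes, and the reverse held for 0 of 38, against 13.5%.

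By role, 8 of 8 tested spindle, kinetochore and cytokinesis genes were called lower in liver with the filter, against 41.8% of all genes tested. Each of these 8 had a liver mean under 5.71 and passed only through fat, so this count is no support by itself. Chromosome structure genes were called lower in 2 of 2 tested and genes of S-phase entry and replication in 8 of 10. Of these, Top2a and Cdc45 had liver means of 4.75 and 5.37 and likewise passed only through fat. Mki67 was at 6.13 and 6.24 in Mgl2-DTR livers and 5.55 and 6.32 in wild-type livers, while no fat array was under 7.40. It differed by -2.19 (SE 0.32; limma adjusted p = 0.000204), the largest distance among these genes. The fat mean of each distance here includes epididymal wild-type replicate 1. Without that array the epididymal mean of Mki67 was 8.47, against 7.65 in inguinal fat and 6.06 in liver. Prc1 was at 4.84 and 4.23 in Mgl2-DTR livers and 4.86 and 4.84 in wild-type livers, and at 5.61 and 5.83 in Mgl2-DTR and 5.75 and 6.11 in wild-type inguinal fat. It differed by -1.76 (SE 0.31; limma adjusted p = 0.000775) between liver and fat. Ccna2 differed by -1.99 (SE 0.35; limma adjusted p = 0.000696) and Top2a by -1.79 (SE 0.32; limma adjusted p = 0.00082). Within the helicase, Mcm4 was at 6.24 and 6.17 in Mgl2-DTR livers and 6.14 and 5.68 in wild-type livers, and at 6.79 and 7.13 in Mgl2-DTR and 7.03 and 7.11 in wild-type inguinal fat. It differed by -1.27 (SE 0.16; limma adjusted p = 8.59e-05), with the smallest adjusted p of the 32. Mcm6 differed by -1.39 (SE 0.25; limma adjusted p = 0.000757) and Mcm7 by -0.68 (SE 0.14; limma adjusted p = 0.00195), and the other subunits Mcm2, Mcm3 and Mcm5 were called lower as well. Pcna differed by -0.77 (SE 0.20; limma adjusted p = 0.00587).

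The mitotic kinases and checkpoint genes were called in 3 of 6 tested, namely Plk1, Aurkb and Bub1b, against 41.8% of all genes tested. Their liver means of 5.36, 5.54 and 5.22 lay under 5.71. These 3 passed only through fat, so this count is no support by itself. Birc5, Bub1, Cdca8 and Ttk of this role had not passed the filter and could not be called. The cyclins and Cdk1 were called in 2 of 3, namely Ccna2 and Ccnb2. Their liver means of 5.03 and 5.47 also lay under 5.71, so they too passed only through fat. Plk1 differed by -1.20 (SE 0.28; limma adjusted p = 0.0037), whereas Aurka, at -0.54 (SE 0.23; limma adjusted p = 0.0608), did not pass. Nucleotide supply was called in 1 of 3. Rrm1, the large subunit of ribonucleotide reductase, differed by -1.14 (SE 0.21; limma adjusted p = 0.000821), while its partner Rrm2 differed by -0.10 (SE 0.25; limma adjusted p = 0.733). The Rrm2 protein is known to be limited to cells in S phase and G2, while the Rrm1 protein persists through the cycle. Tyms was at 6.81 and 6.56 in Mgl2-DTR livers and 6.88 and 6.92 in wild-type livers, and at 6.51 and 6.77 in Mgl2-DTR and 6.65 and 6.60 in wild-type inguinal fat. It was the only gene with a positive estimate, at 0.04 (SE 0.12; limma adjusted p = 0.774). Cdk1 differed by -0.27 (SE 0.23; limma adjusted p = 0.31), E2f1 by -0.22 (SE 0.15; limma adjusted p = 0.22) and Ccne1, the cyclin that starts S phase, by -0.06 (SE 0.16; limma adjusted p = 0.729). For these genes the difference between liver and fat did not exceed the spread between replicates. Cdc20, an activator of the anaphase complex, and Melk did not pass either.

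**Figure D5:**
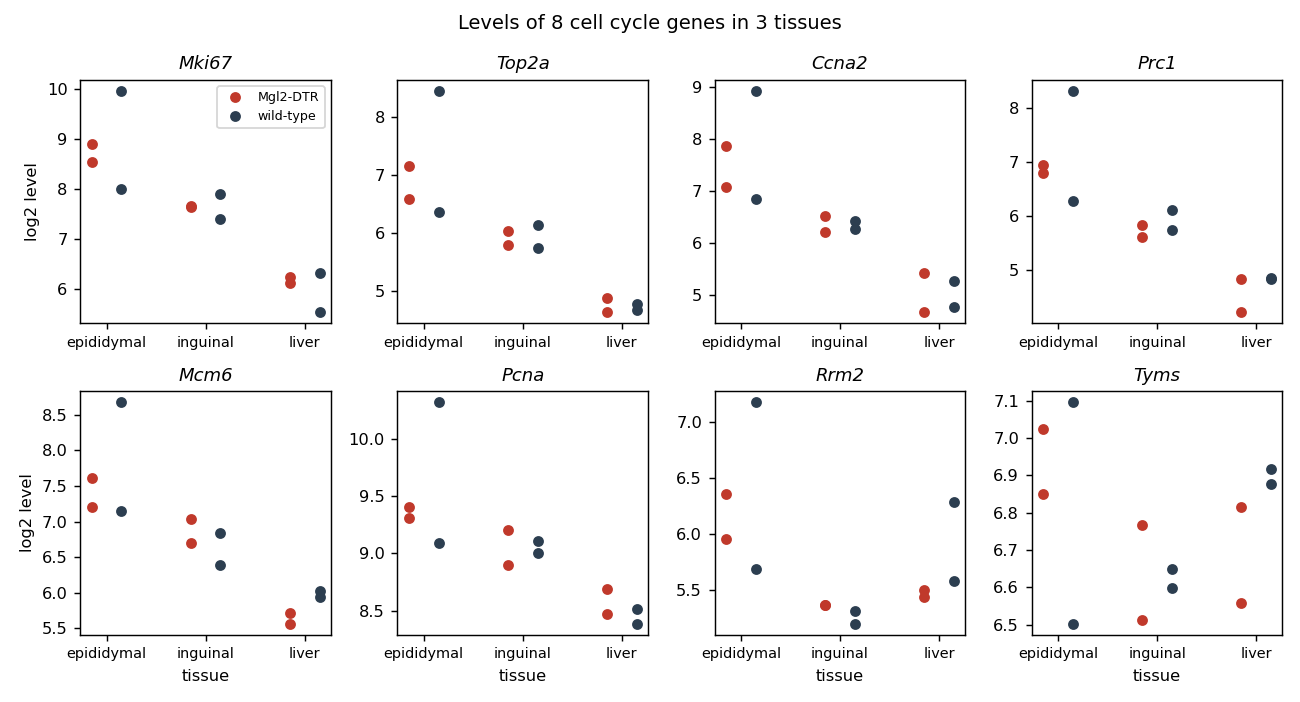
Log2 level of Mki67, Top2a, Ccna2, Prc1, Mcm6, Pcna, Rrm2 and Tyms in epididymal fat, inguinal fat and liver. Each point is an array, coloured by genotype, and epididymal wild-type replicate 1 is included. For Mki67 every liver array lies under every fat array, while for Tyms the levels of the tissues overlap.

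Between the depots, inguinal fat had the lower level for 38 of 38 genes, with a median difference of -0.77. The median of all tested genes was 0.02, with 6851 of 12710 above 0. The epididymal mean holds the array whose height was known when the genes were listed, which favours a lower inguinal level. By limma, 1 gene was called lower, against 3.32% of all genes tested, and 0 were called higher, against 4.11%. That gene was Racgap1, a regulator of the cleavage furrow. Racgap1 was at 6.20 and 5.91 in Mgl2-DTR and 6.09 and 6.14 in wild-type inguinal fat, and at 7.15 and 6.81 in Mgl2-DTR and 8.25 and 6.67 in wild-type epididymal fat. Every inguinal array lay under every epididymal array, as for 23 of 38 genes, against 4.91% of all measured genes. The difference was -1.13 (SE 0.29; limma adjusted p = 0.0453). Kif11 differed by -1.36 (SE 0.42; limma adjusted p = 0.0822), Mki67 by -1.20 (SE 0.37; limma adjusted p = 0.081) and Plk1 by -1.11 (SE 0.32; limma adjusted p = 0.0695), none of which passed.

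The distance between depots was smaller without the high epididymal array. The median difference was then -0.43, and 8 genes were called lower in inguinal fat (Ccnb2, Cenpe, Kif11, Kif23, Plk1, Prc1, Racgap1 and Tpx2), against 3.24% of all genes tested in that fit. Cenpe, Kif11 and Kif23 had passed the filter only through epididymal fat, which favours a lower inguinal level. Without epididymal wild-type replicate 2, 30 were called lower, against 9.61% of all genes tested in that fit, and without any other single array, 0 were. The other 3 epididymal arrays lay above all 4 inguinal arrays for 23 of 38 genes, against 7.25% of all measured genes, and their mean lay above the inguinal mean for 37 of 38. The exception was Cdca8, at 4.64 and 4.65 in Mgl2-DTR and 4.73 and 4.62 in wild-type inguinal fat. With that array left out, the tissue means were in the order epididymal, inguinal, liver from high to low for 31 of 38 genes, against 19.2% of all measured genes. Pan-macrophage markers had medians of 7.91 to 9.36 in inguinal arrays and 9.01 to 10.98 in epididymal arrays, and their part in the distance between depots was not tested. With both muscle-bearing inguinal arrays left out, 0 genes were called.

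Other genes of the cell cycle, from lists drawn up beside the 40, were in part alike. Of 47 measured mitosis genes, wild-type replicate 1 was the highest of the 4 epididymal arrays for 45, against 30.9% of all measured genes, with a median excess of 1.14. It was the highest for 26 of 29 replication genes, with a median excess of 0.80. For 8 genes of G1 (cyclins, their kinases, the phosphatase Cdc25a and the transcription factor Myc) it was highest for 5 (median excess 0.47). Of 7 other E2F factors it was highest for 5 (0.28). Of 13 inhibitors and pocket proteins, a list that also held Ccng1, Ccng2 and Mdm2, it was highest for 4 (0.04). Between genotypes, 0 genes of these lists were called by limma in any tissue, and an unadjusted p under 0.05 was reached by 1 of their genes in epididymal fat, 1 in inguinal fat and 2 in liver, where 6.98%, 6.93% and 5.53% of all genes tested reached it in the 3 tissues. In epididymal fat, those with small p included Ncapd2, a condensin subunit, at -0.62 (SE 0.34; limma adjusted p = 0.753), Cdk2, the partner of cyclin E, at -0.36 (SE 0.21; limma adjusted p = 0.772) and Cdkn2d, an inhibitor of the G1 kinases, at -0.37 (SE 0.14; limma adjusted p = 0.71). In inguinal fat, Dut, which keeps uracil out of DNA, differed by 0.39 (SE 0.15; limma adjusted p = 0.683), and in liver Myc by -1.09 (SE 0.43; limma adjusted p = 0.84).

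In liver against fat, 21 of 30 tested mitosis genes (47 measured) were called lower and 3 higher. Anln, which organizes the cleavage furrow, differed by -2.38 (SE 0.20; limma adjusted p = 3.48e-06) and Ndc80, a kinetochore subunit, by -2.03 (SE 0.32; limma adjusted p = 0.000326). The 3 higher in liver were Cks2, a small partner of the cyclin-dependent kinases, at 2.35 (SE 0.24; limma adjusted p = 2e-05), Spc24, at 1.43 (SE 0.16; limma adjusted p = 2.78e-05), and Cenpm, at 1.10 (SE 0.18; limma adjusted p = 0.000384), the last 2 being kinetochore proteins. Of 21 tested replication genes (29 measured), 10 were called lower and 2 higher. Those lower were led by Orc6 of the origin recognition complex at -1.30 (SE 0.11; limma adjusted p = 5.48e-06). Those higher were Tk1, the thymidine kinase, at 1.37 (SE 0.25; limma adjusted p = 0.000938) and Mcm10 at 1.25 (SE 0.25; limma adjusted p = 0.0017). Called lower were also 5 of the 8 genes of G1, with the D-type cyclin Ccnd2 at -3.52 (SE 0.13; limma adjusted p = 7.96e-09) and Myc at -1.09 (SE 0.26; limma adjusted p = 0.00483). Of the list of 13 inhibitors and pocket proteins, which also held Ccng1, Ccng2 and Mdm2, 9 genes were called lower in liver. They included Cdkn2c, an inhibitor of the G1 kinases, at -2.97 (SE 0.19; limma adjusted p = 5.04e-07), Rb1, the retinoblastoma gene, at -1.96 (SE 0.09; limma adjusted p = 4.42e-08) and Cdkn1a, which encodes the inhibitor p21, at -1.18 (SE 0.30; limma adjusted p = 0.00613), while Cdkn2a was called higher at 0.46 (SE 0.11; limma adjusted p = 0.00523). These counts stand beside 41.8% of all tested genes called lower and 26.6% called higher in liver. Here too, a gene that passed the filter only through fat had to be lower in liver, so these counts are no support by themselves. Between the depots, Anln at -1.29 (SE 0.23; limma adjusted p = 0.0107), Smc4, a condensin subunit, at -0.77 (SE 0.18; limma adjusted p = 0.0324), the G1 kinase Cdk6 at -1.24 (SE 0.21; limma adjusted p = 0.00836) and Mdm2, which restrains p53, at -0.55 (SE 0.13; limma adjusted p = 0.0403) were called lower in inguinal fat.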

How the data were processed

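Per the labels' protocols, RNA was amplified and biotin-labelled by the WT PLUS method and hybridized to Affymetrix mouse arrays. The authors deposited 1 column of normalized log2 values for each array, with column medians between 5.19 and 5.28. Their processing notes, as submitted, name limma, while the steps of background correction and normalization are not stated there. Of 41345 probes, 23521 carry 1 gene symbol in the platform annotation, 1814 several and 16010 none that is listed.

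All 12 arrays entered 1 linear model per gene (limma 3.58.1, R 4.3.3), which held 1 mean for each of 6 groups, left 6 residual degrees of freedom and used eBayes without trend. The tests were two-sided with the Benjamini-Hochberg adjustment across the 12710 genes, and a call means an adjusted p under 0.05. Changes are Mgl2-DTR minus wild-type. Only 2 arrays per group limit the precision. Over all genes tested, the SD of the difference between replicates was 0.55 in Mgl2-DTR and 0.51 in wild-type epididymal fat, against 0.30 to 0.35 in the other groups, so the shared spread can be too small for epididymal fat. The genes and the lists were chosen with earlier results of these data known.

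All 40 genes could be named. Of the other cell cycle lists, the rule took called genes, at most 6 per direction and comparison by size, or otherwise the 3 smallest p in each genotype comparison, from which the text gives examples. Marker lists are given by counts and medians, with at most 3 members by level. Promoters were printed for the 2 replication genes and 2 mitotic genes with the largest excess among those with a promoter entry. The alternatives were other filters, normalizations, probes, variance models, array weights, a replicate block, subsets of arrays, an adjusted p under 0.10 and leaving out each array. After the data were seen, leaving out both epididymal arrays that stand apart, leaving out both muscle-bearing inguinal arrays, and a crossed block in inguinal fat were added.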

Additional observations from a re-analysis of the deposited data

How the results depend on the processing

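In each genotype comparison 0 cell cycle genes were called, and this count held in all alternatives except where epididymal wild-type replicate 2 was left out. Over the settings that leave out 1 array each, the count ran from 0 to 22 for the epididymal change, 0 to 10 for the average change, 0 to 5 for the inguinal minus the epididymal change and 0 to 1 for the liver minus the fat change. The median epididymal change ran from -1.25 to 0.395 over these settings, and it was 0.507 without both epididymal arrays that stand apart (wild-type replicate 1 and Mgl2-DTR replicate 2). The median of the inguinal minus the epididymal change ran from -0.39 to 1.21, and it was -0.51 without both. Without wild-type replicate 1 the median was 0.13 for the average change and -0.20 for the liver minus the fat change, and without both arrays it was 0.15 and -0.23.

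For the level in inguinal minus epididymal fat, where 1 gene was called, the count was 0 with no filter on dim genes, with the filter at the 75th percentile (7.57), after quantile normalization, with only the arrays of both depots, with wild-type arrays only and without both muscle-bearing inguinal arrays. It was 2 with Mgl2-DTR arrays only, 11 without both epididymal arrays that stand apart, 12 with array weights, 14 at an adjusted p under 0.10, and 0 to 30 over the arrays left out in turn. With the replicate block it was 11. Over all genes tested in each fit, 944 were called in either direction in the main fit. That number was 735 with the filter at the 75th percentile, which tests fewer genes, and 974 after quantile normalization. It was 408 with only the arrays of both depots, 68 with wild-type arrays only and 273 with Mgl2-DTR arrays only. With array weights it was 980, and with the replicate block 766. For liver minus fat, where 24 genes were called, the count was 7 with the filter at the 75th percentile, which tests fewer genes, and 14 with wild-type arrays only, and between 21 and 29 in the other alternatives. The cause of the other differences was not tested. The labels do not state whether tissues with the same replicate number came from 1 mouse, and a pairing across tissues was neither modelled nor tested. Within each tissue, the correlation of same-numbered deviations was 0.05 in epididymal fat, -0.12 in inguinal fat and 0.09 in liver. The block changed no count of cell cycle genes called between genotypes. A crossed block in inguinal fat, chosen after seeing the data, called 0 cell cycle genes. Over all genes tested, the block left 1 call in epididymal fat, against 4 without it, 19 in inguinal fat, against 25, 2 in liver, against 9, and 14 in the liver minus the fat change, against 30. The limits are 2 arrays per group, a spread shared by all groups, and probes under 5.71, whose differences are bounded by background.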

Other observations

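The cell cycle genes were not the genes with the widest excess in epididymal wild-type replicate 1. Among the 40 tested genes with the largest excess over the other 3 epididymal arrays, 0 belonged to the 40 cell cycle genes, 0 to the other cell cycle lists and 3 to the macrophage lists. Named after their values were seen, the largest were Nptx1, a neuronal pentraxin gene, at 4.94 and 5.70 in Mgl2-DTR arrays and 8.13 and 4.85 in wild-type arrays, and Tm4sf19, which encodes a membrane protein, at 8.75 and 8.81 in Mgl2-DTR arrays and 11.47 and 8.69 in wild-type arrays. Trem2, a lipid receptor of macrophages, was at 8.40 and 8.36 in Mgl2-DTR arrays and 10.83 and 8.51 in wild-type arrays. The counts by list leave out any macrophage gene that the lists do not hold. The ranking also takes in genes that were high in both wild-type arrays. Mgl2 was among the 40, at 4.25 and 4.19 in Mgl2-DTR arrays and 7.46 and 7.22 in wild-type arrays.

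Probes that carry the symbol of a cell cycle gene beside another were not used in the tests, and wild-type replicate 1 was the highest epididymal array for 2 of 7 of them. The probe shared by Ccne2 and Ints8 was at 5.79 and 5.53 in Mgl2-DTR epididymal fat, against 6.55 and 5.43 in wild-type epididymal fat. The probe shared by Oip5 and Nusap1 was at 4.45 and 4.52 in Mgl2-DTR epididymal fat, against 5.55 and 4.35 in wild-type epididymal fat. The other 5 did not have this order, among them a pair shared by Top2a and Taf1d, of which 1 was at 8.98 and 8.37 in Mgl2-DTR arrays and 8.62 and 8.93 in wild-type arrays. The second single-symbol probe of Rrm2 lay between 2.77 and 3.03 on all 12 arrays.

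Across the 38 cell cycle genes, the excess in that array and the distance between inguinal fat and liver had a Pearson's r of 0.31 and a Spearman's rho of 0.28, given as a description, since the genes share the same arrays.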
